A study of Mus musculus with 12 samples.

Results

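The 90 genes described here encode the proteins of the cytosolic ribosome and their close relatives, out of 17523 genes in the table. They were chosen by symbol alone, as Rpl or Rps followed by a digit together with Rplp0, Rplp1, Rplp2 and Rpsa, leaving out the S6 kinases and symbols holding -ps. Of these, 46 encode proteins of the large subunit, 31 encode proteins of the small subunit, and 13 are paralogs, retrocopies, pseudogenes or genes that only share the prefix. Another 5 RefSeq symbols met the rule and were not analysed here. The RNA came from splenic CD4+ T cells that were sorted from unimmunized Gr/fr mice of the C57BL/6 strain. Mice used for sorting were 2 to 3 months old per the methods. In these mice a Csf2 allele also drives iCre and blue fluorescent protein, and iCre switches on yellow fluorescent protein (YFP) at Rosa26 for good, so that YFP+ cells have expressed GM-CSF at some time and YFP- cells have not done so at a level that recombined the reporter. All 4 groups carry both alleles. They are naïve cells (CD62L+CD44-) and effector memory cells (TEM, CD62L-CD44hi), each YFP- or YFP+, with 3 libraries per group.

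Ribosomal proteins assemble with ribosomal RNA into a large and a small subunit, and each ribosome needs most of its core proteins in equal number. Most of their mRNAs start with a C followed by a run of pyrimidines, the 5′ terminal oligopyrimidine (TOP) tract, through which mTORC1 and the RNA-binding protein LARP1 control their translation and stability. In T cells, ribosome production rises when a resting cell is activated and begins to grow.

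The libraries held between 40974124 and 57822269 reads assigned to genes. The sort marker Cd44 followed the labels and was at 3372 or fewer in each naïve library and 21778 or more in each TEM library. Csf2 was at 3.94 or fewer in all libraries but those of YFP+ TEM cells, which held 138.5, 55.9 and 152.1. The summed level of 8 T cell genes overlapped among all groups, from 218700 to 308100. Markers of other cells differed between groups: 10 genes of plasmacytoid dendritic cells summed to 3134 to 4085 in the naïve libraries, 14500 to 24790 in YFP- TEM and 7199 to 10200 in YFP+ TEM libraries, and 12 myeloid genes to 2149 to 5630, 21480 to 38910 and 4578 to 7543. In contrast, 8 genes of NK and CD8 T cells were highest in YFP+ TEM libraries, at 6761 to 10890, against 3746 to 4029 in YFP- TEM, 1440 to 1580 in naïve YFP- and 756.2 to 932.7 in naïve YFP+ libraries. Sums of 10 B cell genes ran from 738.3 to 2767 in naïve, 3011 to 4782 in YFP- TEM and 1581 to 2310 in YFP+ TEM libraries, and those of erythroid genes from 54.14 to 380.9 in naïve YFP-, 83.71 to 3871 in naïve YFP+, 90.66 to 1343 in TEM YFP- and 843.0 to 3308 in TEM YFP+ libraries. Siglech, a defining gene of plasmacytoid dendritic cells, had 1412 to 3367 normalized counts in YFP- TEM libraries, 26.9 to 118.3 in YFP+ TEM libraries and 0 in 4 of the 6 naïve libraries.

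Stretches near annotated starts are shown for members that fell most, for the pair Rps27 and Rps27rt that share most of their sequence, and for 3 members that did not follow the family. Each stretch has 30 bases in the sense direction from RefSeq on GRCm38.p6, and capitals mark a pyrimidine run in any of 4 spellings. Stretches with a run are placed on the run, and those without a run on the annotated start. The run lies 41 bases before an annotated start of Rps19 and at base 44 of another. In Rpl5 it lies 18 bases before the start. It begins at base 3 in Rpl12, base 2 in Rps27 and base 1 in Rps27rt. Whether the transcripts begin at these runs was not tested. The first is CTTTCC and the next is CTTTCT, while the remaining spellings are CTTTTC and finally CTTTTT.
Rps19 (chr7:24884623-24884652, + strand): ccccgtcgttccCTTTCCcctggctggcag
Rpl12 (chr2:32961702-32961731, + strand): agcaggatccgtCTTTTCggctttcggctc
Rpl5 (chr5:107900498-107900527, + strand): cctacagccactCTTTCTcacgtcgcttgc
Rps27 (chr3:90213630-90213659, - strand): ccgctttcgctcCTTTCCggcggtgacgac
Rps27rt (chr9:114982722-114982751, - strand): acttatcccttgCTTTCCggcggtgacgac
Rps27l (chr9:66946071-66946100, + strand): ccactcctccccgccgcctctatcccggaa
Rps19bp1 (chr15:80264292-80264321, - strand): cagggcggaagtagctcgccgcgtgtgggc
Rpl7l1 (chr17:46782642-46782671, - strand): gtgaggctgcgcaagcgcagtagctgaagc

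Of the 57 genes for proteins of both subunits with a start sequence, 35 (61.4%) held one of these 4 spellings on the transcribed strand within 50 bases of an annotated start, against 17.4% of 27025 genes with such a sequence. On the opposite strand the shares were 8.77% and 16.1%. The 4 spellings begin with the same letters, and a gene with several annotated starts counted once. The median log2 fold change of TEM against naïve YFP- cells was -0.84 for the 35 with it and -0.86 for the 22 without it. Genes without it lack only these exact spellings, and some, such as Rplp2, have another pyrimidine run at the annotated start. The 2 medians therefore do not compare genes with and without a TOP tract. The stretches shown above are not a sample of all members. Rps16 (-1.15) and Rps4x (-1.01) were among those without it, and the uncalled Rpl39l and Rps23rg1 held it.

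Ribosomal protein transcripts held a smaller share of the library in TEM than in naïve cells, with or without YFP. The 90 members took 10.05, 9.42 and 9.39% of all normalized counts in the 3 naïve YFP- libraries and 5.70, 6.14 and 5.59% in the 3 TEM YFP- libraries. In YFP+ cells they took 10.84, 8.84 and 9.14% in naïve and 6.57, 5.13 and 5.47% in TEM libraries. Every TEM library lay below every naïve library, while YFP+ and YFP- libraries of the same cell type overlapped. Replicate 1 was the highest of the 3 in both YFP+ groups and in naïve YFP- cells, and replicate 2 in TEM YFP- cells. In bulk libraries, a change in the make-up of the sorted cells and a change in RNA per cell cannot be told apart, and a share of the library is not an amount per cell.

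**Figure D1:**
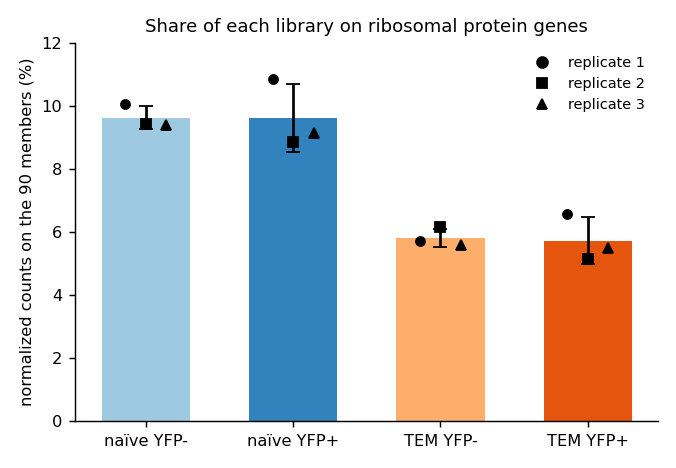
Percent of all normalized counts on the 90 members (vertical axis, from 0) in each library of the 4 groups; bars are group means, error bars 1 SD over 3 libraries, and symbols the replicate number. Naïve libraries lie between 8.84 and 10.84% and TEM libraries between 5.13 and 6.57%.

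Both subunits fell together. In YFP- cells, 81 of the 89 members tested were lower in TEM than in naïve cells and 2 were higher (limma, Benjamini-Hochberg adjusted p of 0.05 or less over 15587 genes, no fold threshold), where 19.9% of all genes tested were lower and 29.9% higher. In YFP+ cells, 82 members were lower and 1 was higher, against 16.7% and 24.7% of all genes. All 77 genes for proteins of the 2 subunits were lower in both comparisons, which share no library but may share mice. The libraries of the 2 groups did not overlap for any of the 77. Of all genes, 25.2% were lower without overlap in YFP- and 21.3% in YFP+ cells. With a log2 fold change of 1 or more in size as well, 16 members were lower and 1 was higher in YFP- cells (5.25% and 21.2% of all genes), and 19 were lower and 0 higher in YFP+ cells (5.01% and 16.3%). The median log2 fold change of the 77 was -0.86 in YFP- cells (a fall of 44.7%) and -0.85 in YFP+ cells (44.5%), beside medians of 0.05 and 0.03 over all genes tested. With quantile normalization the median was -0.49 in YFP- and -0.59 in YFP+ cells, and 75 and 76 of the 77 were called lower. The dendritic and myeloid marker sums were higher in YFP- than in YFP+ TEM libraries, and the NK and CD8 T cell sums were higher in YFP+ TEM libraries, while the median fall of the 77 was of like size in both; the part of these cells in either comparison was not tested.

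The small subunit had a median log2 fold change of -0.91 in YFP- and -0.89 in YFP+ cells, and the large subunit of -0.80 and -0.79. The spread among members was narrow, with an SD of 0.19 in YFP- and 0.20 in YFP+ cells on the log2 scale. The ratio of small to large subunit counts was 0.760 ± 0.00429 in naïve YFP- and 0.741 ± 0.0061 in TEM YFP- libraries, and 0.758 ± 0.00201 and 0.735 ± 0.00472 in YFP+ libraries (SD, n = 3). In both YFP classes each TEM library had a lower ratio than each naïve library.

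**Figure D2:**
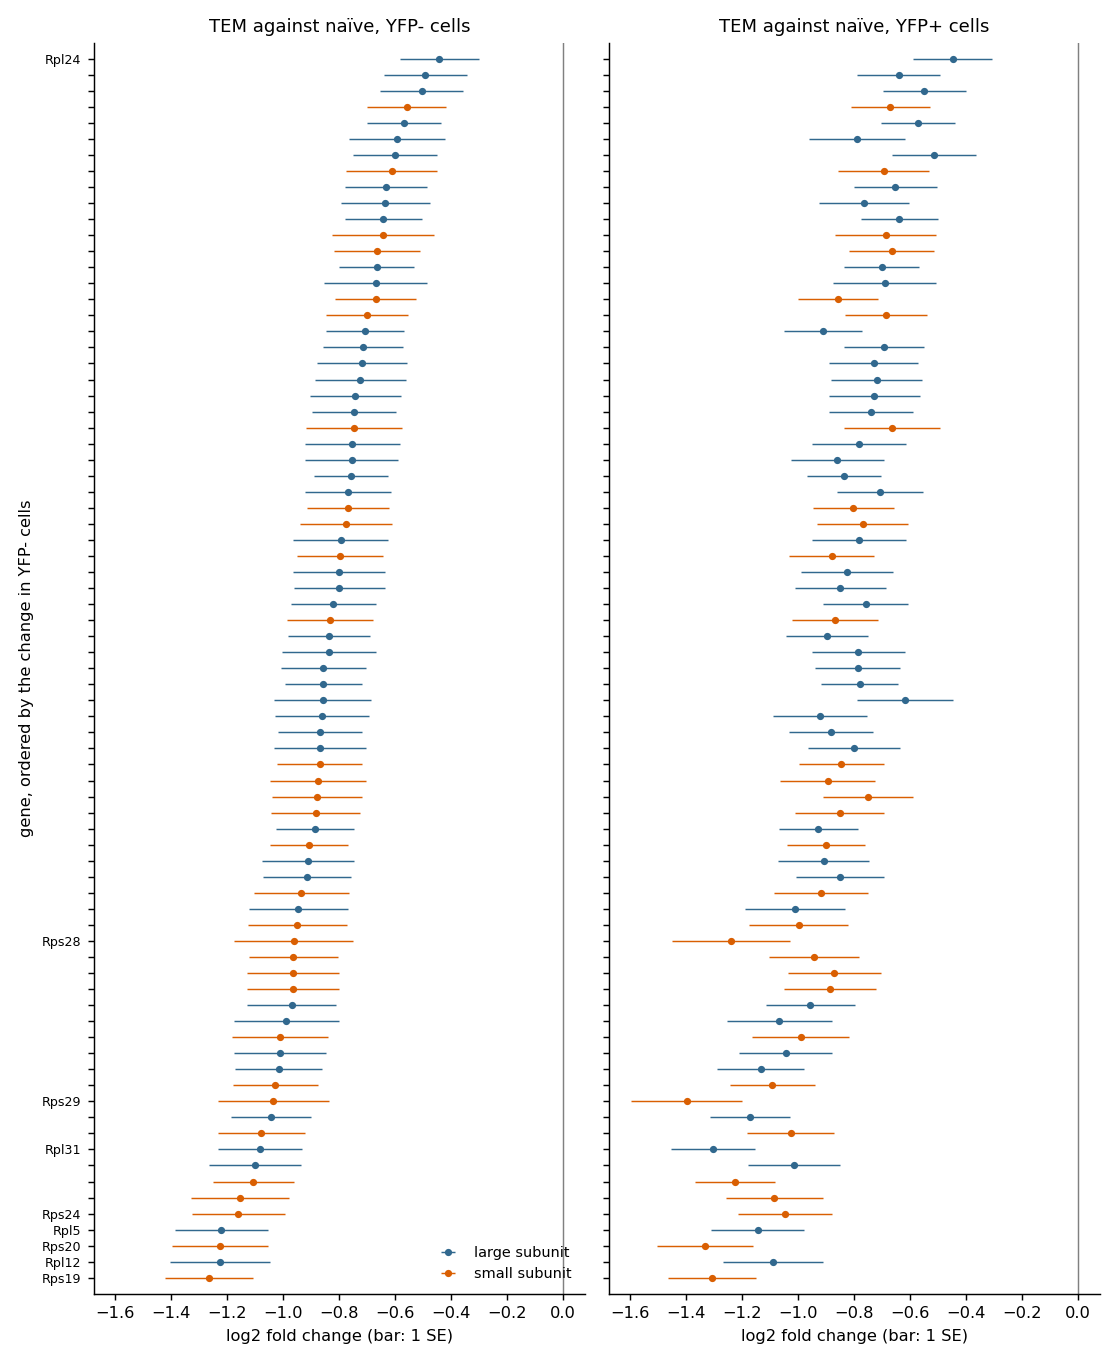
Log2 fold change of TEM against naïve cells (horizontal axis) with 1 SE for the 77 genes of both subunits, in YFP- cells (left) and YFP+ cells (right), in the order of the change in YFP- cells, with the largest and smallest falls labelled. Every point lies below 0, from -1.26 to -0.44 on the left and from -1.40 to -0.45 on the right.

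Among small subunit proteins, Rps19, needed for maturation of the small subunit RNA and mutated in Diamond-Blackfan anaemia, had the largest fall in YFP- cells. It was at 53173, 43204 and 44249 normalized counts in naïve and 18653, 19784 and 19856 in TEM YFP- libraries, a change of -1.26 ± 0.16 on the log2 scale (SE, adjusted p = 2.65e-05 in limma). In YFP+ cells it was at 57769, 40035 and 43637 in naïve and 22889, 16121 and 17994 in TEM libraries, a change of -1.31. The groups were apart in both comparisons, and the highest TEM library held less than the lowest naïve library.

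Rps20, a protein of the small subunit head, fell by 1.23 in YFP- and by 1.33 in YFP+ cells on the log2 scale. Its values were 54660, 44252 and 44133 in naïve YFP-, 20152, 21228 and 19522 in TEM YFP-, 61061, 42726 and 43582 in naïve YFP+ and 24660, 16273 and 17774 in TEM YFP+ libraries. Rps24, also required for processing of the small subunit RNA, fell by 1.16 and by 1.05. Both genes were apart between naïve and TEM libraries in each YFP class.

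Rps29, a small zinc-binding protein, had the largest fall in YFP+ cells. It was at 38305, 25806 and 25035 normalized counts in naïve and 14029, 8592 and 11216 in TEM YFP+ libraries, a change of -1.40 ± 0.20 on the log2 scale (SE, adjusted p = 0.000116 in limma). In YFP- cells the change was -1.03, from 30210, 25924 and 23291 to 12501, 14989 and 11306. The difference of 0.36 between the 2 was not called (adjusted p = 0.82 in limma), and no other member of the 2 subunits differed more. Rps28 changed by -1.24 in YFP+ and by -0.96 in YFP- cells.

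Among large subunit proteins, Rpl12, part of the stalk base where translation factors dock, was at 114484, 95598 and 99116 normalized counts in naïve and 44962, 43613 and 43182 in TEM YFP- libraries. Its log2 fold change was -1.23 ± 0.18 there and -1.09 in YFP+ cells (SE, adjusted p = 9.97e-05 and 0.000357 in limma). Rpl5, which binds 5S RNA and, when free, the p53 regulator MDM2, fell by 1.22 in YFP- and by 1.15 in YFP+ cells. Rpl31 fell by 1.08 and by 1.31.

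The smallest fall was that of Rpl24, at 19113, 16458 and 16474 normalized counts in naïve and 12828, 13421 and 12027 in TEM YFP- libraries, and at 21162, 15787 and 15236 in naïve and 15181, 11116 and 11893 in TEM YFP+ libraries. Its log2 fold change was -0.44 ± 0.14 in YFP- and -0.45 ± 0.14 in YFP+ cells (SE, adjusted p = 0.0202 and 0.0227 in limma). The call was lost without naïve replicate 1 (adjusted p = 0.0769 in YFP- and 0.0865 in YFP+ cells), without TEM replicate 3 (0.0694 and 0.0760), without TEM YFP+ replicate 2 (0.0901) and in YFP+ cells with the 6 libraries compared alone (0.0747). Its neighbours in size in YFP- cells, Rpl41 at -0.49 and Rpl29 at -0.50, differed from it by less than 1 SE.

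Levels between genes were compared per kilobase of the union of annotated exons, as the mean of 12 libraries. The order of the highest depends on this length. For Rps27 the union has 1043 bases and the longest curated mRNA 345, while both have 977 for Rps3a1. Rplp1 and Rplp0 of the acidic stalk, at 129200 and 89970 normalized counts per kb, and Rps3a1, at 83850, were highest. Rplp0 was at 218019, 178722 and 196236 normalized counts in naïve and 96132, 101085 and 100772 in TEM YFP- libraries, a log2 fold change of -0.99, and Rplp1 and Rps3a1 changed by -0.94 and -0.96. The lowest were Rpl39l at 7.39, Rps23rg1 at 1.36 and Rpl3l at 1.14 per kb. Rpl3l, the striated muscle paralog of Rpl3, had at most 3.5 normalized counts in any library and was the 1 member not tested.

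The order of the falls was alike in YFP- and YFP+ cells: over the 77 genes, the 2 sets of log2 fold changes had a Pearson r of 0.88 and a Spearman rho of 0.89, across genes that share libraries and are not independent replicates. For 59 of the 77 the 2 changes differed by less than 0.1. Of the 10 largest falls in each comparison 5 were shared, and of the 10 smallest falls 6.

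Paralogs and prefix matches were the members that departed from the family. Of the 12 tested, 4 were lower and 2 higher in TEM YFP- cells (19.9% and 29.9% of all genes tested). In TEM YFP+ cells 5 were lower and 1 was higher (16.7% and 24.7%). Those that fell were Rpl22l1 (-0.64 in YFP- and -0.74 in YFP+ cells), which is close to Rpl22 (-0.57 in both), Rpl36al (-0.52 and -0.49), whose parent gene Rpl36a changed by -1.01 and -1.04, the pseudogene Rpl6l (-0.72 and -0.80) and Rps27rt (-0.97 and -1.01). Rpl37rt was called in YFP+ cells (-0.96) and not in YFP- cells (-0.57, adjusted p = 0.0593 in limma). It was called there with the replicate block (adjusted p = 0.0349 in limma), with edgeR (0.0465) and with DESeq2 (0.0425).

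Sequence shared with other genes limits what can be said of single members. Of the 50-base windows of Rps27rt, 91.1% also occur in Rps27, and 38.7% of those of Rpl37rt occur in Rpl37, so counts of each pair may be split between the genes. Over the 77 genes, the median share of such windows also found in another GENCODE M21 gene was 49.3%. The median log2 fold change in YFP- cells was -0.83 for the 39 genes with the smaller shares and -0.86 for the 38 with the larger. None of the windows of Rps27l, Rps4l, Rpl36al or Rpl22l1 occurs in the related gene named Rps27, Rps4x, Rpl36a or Rpl22. Other genes hold 13.7% of the windows of Rps27l, 14.9% of Rps4l, 63.3% of Rpl36al and 57.3% of Rpl22l1.

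Rps27l, a p53-inducible paralog of Rps27, rose where Rps27 fell. It was at 488.4, 439.2 and 435.5 normalized counts in naïve and 728.3, 730.7 and 734.5 in TEM YFP- libraries, a change of 0.69 ± 0.13 on the log2 scale (SE, adjusted p = 0.000841 in limma). In YFP+ cells it was at 493.4, 347.3 and 409.2 in naïve and 586.4, 575.8 and 529.4 in TEM libraries, a change of 0.45 ± 0.13 (adjusted p = 0.0157). The groups did not overlap in either comparison, where 33.9% of all genes tested were higher without overlap in YFP- and 27.4% in YFP+ cells. The call in YFP+ cells was lost without naïve replicate 2 (0.33, adjusted p = 0.0645 in limma), without TEM replicate 1 (0.42, adjusted p = 0.0507) and with the 6 libraries alone (adjusted p = 0.0645), and with quantile normalization neither call held (0.31 and 0.18). Rps27 itself changed by -0.95 in YFP- cells, and in YFP+ cells it was at 60262, 41955 and 42719 in naïve and 29159, 20071 and 23126 in TEM libraries.

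Rps4l, annotated as a transcribed pseudogene, was called higher in TEM YFP- cells and not in TEM YFP+ cells. It was at 9.2, 20.2 and 21.9 normalized counts in naïve and 60.7, 94.1 and 141.6 in TEM YFP- libraries, a change of 2.47 ± 0.42 on the log2 scale (SE, adjusted p = 0.000357 in limma). In YFP+ cells it was at 28.4, 36.4 and 22.3 in naïve and 42.5, 36.2 and 28.5 in TEM libraries, which overlap, a change of 0.30 (adjusted p = 0.60). The difference between the 2 changes was -2.17 ± 0.60 (SE, adjusted p = 0.0746 in limma), and was called with DESeq2 (adjusted p = 0.0154) and with a prior count of 5 (0.0473). With quantile normalization the change in YFP- cells was 0.97 (adjusted p = 0.0551 in limma). The plasmacytoid dendritic and myeloid sums were likewise highest in the TEM YFP- libraries, and their part in the level of Rps4l was not tested.

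**Figure D3:**
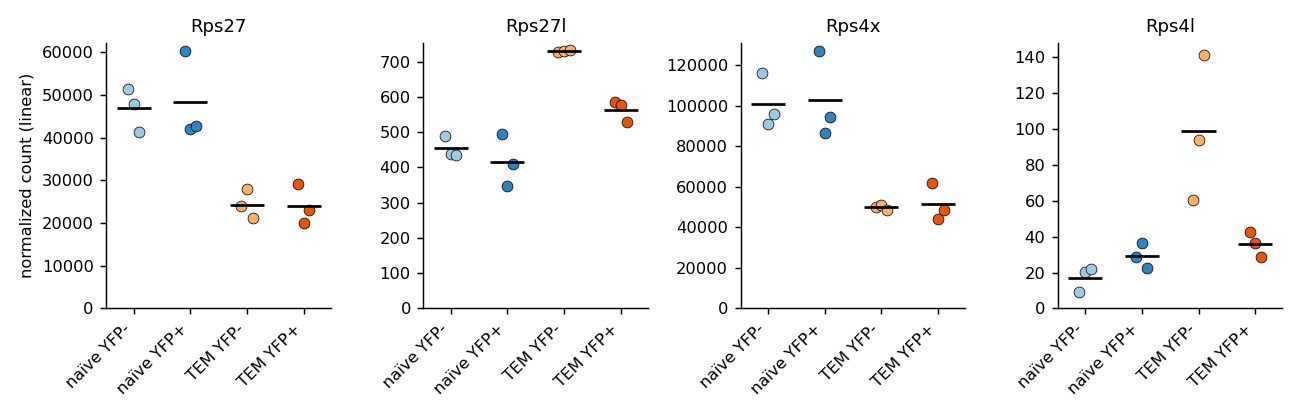
Normalized counts (linear axes from 0) of Rps27, Rps27l, Rps4x and Rps4l in the 12 libraries; points are libraries and lines group means. Rps27 and Rps4x are lower in every TEM library, Rps27l is higher in every TEM library, and Rps4l is highest in the TEM YFP- libraries, at 60.7 to 141.6.

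The remaining matches had no call in either comparison. Rps19bp1, a SIRT1-binding protein named for Rps19, had log2 fold changes of 0.09 in YFP- and 0.18 in YFP+ cells, and Rpl7l1, a relative of Rpl7, of 0.16 and 0.14. With quantile normalization Rps19bp1 was negative and was called lower in YFP- cells (-0.45, adjusted p = 0.0141 in limma) and not in YFP+ cells (-0.13). Rpl39l, Rps23rg1 and Rpl32l were at 23.5 normalized counts or fewer in every library. Quantile normalization also called Rpl32l lower in both comparisons (-2.67 and -2.40) and Rps23rg1 lower in YFP+ cells (-1.74), and Rps23rg1 was called there without TEM YFP+ replicate 1 as well (-1.75).

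Between YFP+ and YFP- TEM cells 0 of the 89 members were called by limma, where 4.67% of all genes were lower and 2.3% higher. At an unadjusted p of 0.05 or less, 3 members were lower (Rpl39l, Rps27l and Rps4l) and 0 higher, against 10.4% and 6.7% of all genes. The median log2 fold change of the 77 was -0.0037, and the 95% intervals of the 77 together ran from -0.65 to 0.56. Single libraries moved this median: it was -0.14 without TEM YFP+ replicate 1, with 75 of the 77 negative, and 0.09 without TEM YFP+ replicate 2, with 10 negative. edgeR called 0, and DESeq2 called 2 lower members, Rps27l (-0.38) and Rps4l (-1.46). Between YFP+ and YFP- naïve cells 0 members were called by limma, edgeR or DESeq2, where limma called 0.00642% of all genes higher and 0% lower. At an unadjusted p of 0.05 or less 0 members passed, against 2.49% of all genes higher and 0.834% lower. The median of the 77 was 0.0021, with intervals from -0.46 to 0.58, and it was -0.15 without naïve YFP+ replicate 1 (77 negative) and 0.10 without naïve YFP+ replicate 2 (0 negative). For the difference of the memory changes between YFP+ and YFP- cells, limma and edgeR called 0 members and DESeq2 called Rps4l, where limma called 2.73% of all genes lower and 0.828% higher. At an unadjusted p of 0.05 or less limma had 1 lower member, Rps4l, against 8.1% of all genes lower and 3.62% higher. These comparisons use the same libraries as those above. The intervals leave room for differences of up to about the width given, so they do not show that the levels are equal.

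**Figure D4:**
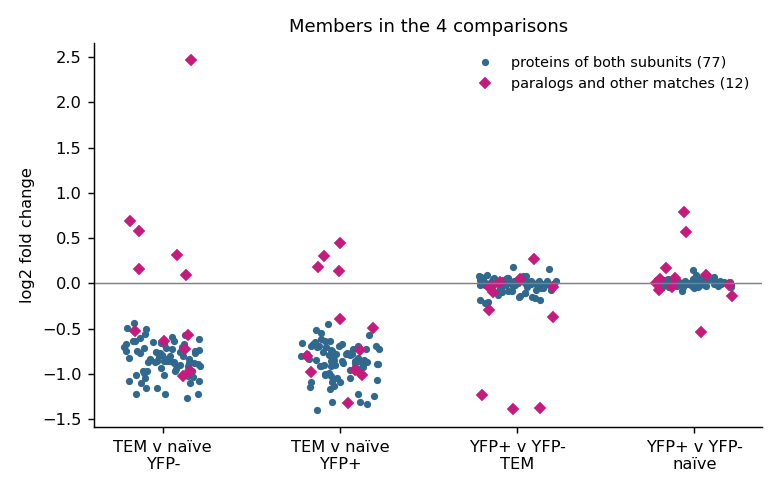
Log2 fold change (vertical axis) of the 77 genes of both subunits (circles) and the 12 tested paralogs and other matches (diamonds) in the 4 comparisons; sideways spread is for display. The circles lie below 0 in both comparisons of TEM with naïve cells and around 0 between YFP+ and YFP- cells.

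Other genes of the ribosome and of translation were read from lists. Of all 15587 genes tested, 19.9% were lower and 29.9% higher in TEM YFP- cells, and 16.7% and 24.7% in TEM YFP+ cells. Fau and Rack1, which encode ribosomal proteins under other names, changed by -0.61 and -0.86 in YFP- and by -0.59 and -0.83 in YFP+ cells, all called. Of 50 genes of ribosome biogenesis, 28 were lower and 0 higher in TEM YFP- cells (median -0.35), and 37 were lower and 0 higher in TEM YFP+ cells (median -0.37). The largest falls in YFP- cells were of Nob1, which cuts the last precursor of the small subunit RNA (-0.81), and Taf1d, a factor of RNA polymerase I (-0.80), both called in YFP+ cells too (-0.74 and -0.92).

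Of 39 translation factors and related genes, 15 were lower and 2 higher in TEM YFP- cells (19.9% and 29.9% of all genes). In TEM YFP+ cells 15 were lower and 0 higher (16.7% and 24.7%). Tpt1 and the elongation factor subunit Eef1b2, whose mRNAs carry TOP tracts, changed by -1.10 and -0.92 in YFP- cells, and Nap1l1 and Eif4h by 0.39 and 0.27. Of 11 RNAs that host small nucleolar RNAs, 9 were lower and 0 higher in each comparison (medians -0.78 and -0.77), with Epb41l4aos at -1.24 and Snhg12 at -1.06 in YFP- cells.

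Of 25 genes of mTORC1, Myc and TOP mRNA regulation, 11 were lower and 3 higher in TEM YFP- cells (19.9% and 29.9% of all genes). In TEM YFP+ cells 8 were lower and 2 higher (16.7% and 24.7%). Myc was at 3455, 4520 and 5057 normalized counts in naïve and 3196, 2727 and 3251 in TEM YFP- libraries, a change of -0.49 on the log2 scale (adjusted p = 0.0411 in limma), and changed by -0.59 in YFP+ cells. Larp1 changed by -0.41 and -0.37, both called, and Mtor by -0.0063 and -0.064, neither called. Among those higher in YFP- cells were Mxd4 (1.34) and Deptor (1.23), and the largest falls were of Akt1s1 (-0.62) and Tia1 (-0.60).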

How the data were processed

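Total RNA of 12 libraries was sequenced with a stranded kit. According to the study's methods, the authors mapped reads to mm10 with DRAGEN and summarised them per gene with Rsubread; the annotation, strand setting and versions are not given in the sources used here. The deposited signal is normalized counts, which the authors obtained by dividing counts by DESeq2 size factors. To recover reads, each column was divided by its smallest non-zero value, taken as a single read. After this step 100% of values were whole (tolerance 0.001), and 0 columns were left unused. The read totals of the libraries rest on this step. Log2(value + 1) was fitted for the 15587 genes with at least 5 in 3 libraries. The fit used limma 3.58.1 with a trend (R 4.3.3), 4 group means and 8 residual degrees of freedom. It was also run on simulated counts of independent genes with a single fixed dispersion. Members here move together between libraries, so that run checks the code and not the calls in these data. Alternatives used edgeR 4.0.16 and DESeq2 1.42.0 on the recovered reads. Libraries are labelled separate samples; p-values measure their spread. Members and lists were chosen with earlier results of these data known. Named are the 5 largest changes each way, all paralogs, level extremes and list extremes; Rps27, Rps4x, Rpl22, Rpl36a, Rpl29, Rpl41 and Siglech were added after values were seen. Some genes under this rule are not reported here. Lengths and shared windows used the longest curated mRNA or the exon union in GENCODE M21. Deviations of same-numbered libraries from their group means were correlated between groups that were compared. The correlations ran from 0.137 to 0.491, but from -0.0199 to 0.204 between naïve and TEM YFP+ cells. The main fit took the numbers as pairs in no comparison, and the replicate block was an alternative.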

Additional observations from a re-analysis of the deposited data

How the results depend on the processing

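In both comparisons of TEM with naïve cells, all 77 genes of both subunits had a negative change under every alternative run; leaving out 1 library at a time called 73 to 77 of them lower in YFP- and 74 to 77 in YFP+ cells, and the fit of the 6 libraries 73 in YFP+ cells. A fold threshold of 1 on the log2 scale left 16 lower and 1 higher member in YFP- cells and 19 and 0 in YFP+ cells. Quantile normalization, which moved the median of all genes to -0.20 and -0.14 (0.05 and 0.03 as deposited; scaling to total reads gave 0.19 and 0.15), left 0 higher members in each, with member medians of -0.49 and -0.60, and turned the sign of Rpl39l (-1.14), Rps23rg1 (-1.07) and Rps19bp1 (-0.45) in YFP- cells and of Rps19bp1 (-0.13) and Rps4l (-0.72) in YFP+ cells. The fit of the 6 libraries left 0 higher members in YFP+ cells. Between YFP+ and YFP- TEM cells, a prior count of 5 and scaling to total reads each called 1 lower member and DESeq2 called 2; for the difference of the memory changes, a prior count of 5 and DESeq2 each called 1. The cause was not tested. Leaving out each library gave 0 to 1 higher members in YFP+ cells, 0 without naïve replicate 2 or TEM replicate 1. The replicate block gave 82 lower and 2 higher members in YFP- cells and 82 and 1 in YFP+ cells, and changed no call of a named member other than Rpl37rt in YFP- cells. The curated mRNA of the lowest accession number, tried after seeing the data, gave a median of 50.9% of shared windows instead of 49.3%. Adding the -ps genes to the share, dropping the paralogs, and size factors computed without ribosomal protein genes, the first and last chosen after seeing the data, moved no value beyond the spread between replicates. With 3 libraries per group, an exact permutation of a single value could not go below 0.10.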

Other observations

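The table also held 29 genes named Rpl or Rps with -ps, annotated as pseudogenes by their names and left out of the members. Of the 26 tested, 15 were lower and 0 higher in TEM than in naïve YFP- cells (median log2 fold change -0.70). In YFP+ cells 19 were lower and 0 higher (-0.90), both by limma at an adjusted p of 0.05 or less. Of all genes tested, 19.9% were lower and 29.9% higher in YFP- cells, and 16.7% and 24.7% in YFP+ cells. The 29 -ps genes took 0.355 ± 0.013% of normalized counts in naïve YFP- and 0.220 ± 0.01% in TEM YFP- libraries (SD, n = 3). Reads of these copies and of their parent genes cannot be separated with certainty.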
